A study of Mus musculus with 15 samples.

Results

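Ryr2, Camk2d and Cacnb2 encode a release channel, a kinase and a channel subunit that act on calcium in heart muscle, and the sites at which the RNA-binding protein SAM68 was crosslinked to their transcripts were followed through the differentiation of mouse stem cells. Every binding site that the deposited lists assign to the Ensembl ID of one of these genes was taken, on the strand of the gene. That gave 157 sites in 3 genes, of 132293 sites in 7949 genes over all lists. Of the 157 sites, none was in the day 0 list, 3 were in the day 3 list and 154 were in the day 10 list.

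SAM68 was mapped by iCLIP2, in which ultraviolet light fixes a protein to the RNA it touches, an antibody recovers the complex, and the stop of reverse transcription marks the crosslinked nucleotide. The groups, for which the labels name no genetic change, were E14 mouse embryonic stem cells at day 0, whose maintenance medium held leukemia inhibitory factor and inhibitors of GSK and MEK, and embryoid bodies, aggregates of differentiating cells, made from them in serum medium at day 3 and day 10. All came from this 1 line, each day had 5 libraries, and the labels do not say whether the libraries of a day came from separate cultures. Day 3 bodies were raised in hanging drops and day 10 bodies in spheroid plates, so day, medium and culture format cannot be told apart. Whole embryoid bodies hold several cell types, and more cells of a type, more RNA per cell and more binding per RNA molecule cannot be told apart in such a sample.

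The files hold 1 site list for each day, in which a site is 5 nt wide, and nothing for the libraries one by one. Replicate error and depth are therefore unknown, and no comparison of days below could take the spread between libraries into account. The lists hold 29740 sites on day 0, 28266 on day 3 and 74287 on day 10, so a gene's sites were also expressed as a share of the list of that day. All intervals are exact 95% intervals of counting error, and neighbouring sites of a gene are not independent draws. A share is called larger on 1 day than on another if the interval for their ratio lies wholly above 1, which compares 2 lists and not replicated groups. RNA abundance was not analysed here.

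In a heart muscle cell, calcium that enters through voltage-gated channels of the surface membrane opens ryanodine receptors of the sarcoplasmic reticulum, and the released calcium starts contraction. RYR2 is that release channel in heart. CACNB2 is an auxiliary beta subunit that carries the pore-forming calcium channel subunit to the membrane and sets its gating. CAMK2D is the main cardiac isoform of calcium/calmodulin-dependent kinase II, which phosphorylates the ryanodine receptor, the calcium channel and other proteins of the cycle. All 3 are also made in some other cells, neurons among them, and Camk2d and Cacnb2 transcripts are known to be alternatively spliced. SAM68 is a STAR family protein with roles in splicing and RNA processing, known to bind A- and U-rich RNA.

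The annotated starts used here are shown because the sites of Cacnb2 all lie on 1 side of its second start. Distances below are to the ends of the span. The span begins 1464 nt before the start shown for Camk2d and 445 nt before the first start shown for Cacnb2. Each window is from RefSeq in GRCm38.p6, read 5′ to 3′ on the strand of the gene, from 250 bases before the start to 50 bases from the start onward. Capitals mark matches, on either strand, to the TATA box (TATAAA), the core bound by GATA factors (GATAA), the CCAAT box (CCAAT), the E-box (CANNTG) or the GC box (GGGCGG). A reverse-strand match to GGGCGG reads as its reverse complement, and overlapping matches run together. The windows lie at chr13:12106896-12107195 on the minus strand for Ryr2, at chr3:126596701-126597000 on the plus strand for Camk2d, at chr2:14604056-14604355 on the plus strand for the first start of Cacnb2 and at chr2:14823842-14824141 on the plus strand for its second start.
Ryr2: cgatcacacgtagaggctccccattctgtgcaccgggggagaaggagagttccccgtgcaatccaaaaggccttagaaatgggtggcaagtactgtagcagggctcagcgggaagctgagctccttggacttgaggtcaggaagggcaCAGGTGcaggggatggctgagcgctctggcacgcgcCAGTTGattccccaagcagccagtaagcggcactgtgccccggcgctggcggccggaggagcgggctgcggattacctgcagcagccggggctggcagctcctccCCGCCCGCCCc
Camk2d: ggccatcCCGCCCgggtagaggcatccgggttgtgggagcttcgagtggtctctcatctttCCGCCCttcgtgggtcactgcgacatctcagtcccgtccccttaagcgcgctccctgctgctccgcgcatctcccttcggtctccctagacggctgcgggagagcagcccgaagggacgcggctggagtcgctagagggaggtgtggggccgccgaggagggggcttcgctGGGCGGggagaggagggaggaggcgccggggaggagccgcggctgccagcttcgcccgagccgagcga
Cacnb2, first start: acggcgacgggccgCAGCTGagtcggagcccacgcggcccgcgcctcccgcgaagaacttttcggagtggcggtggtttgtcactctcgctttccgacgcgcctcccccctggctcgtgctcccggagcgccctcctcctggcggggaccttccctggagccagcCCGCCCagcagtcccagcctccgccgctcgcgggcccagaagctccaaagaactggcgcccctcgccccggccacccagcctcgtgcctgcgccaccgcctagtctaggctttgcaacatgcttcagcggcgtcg
Cacnb2, second start: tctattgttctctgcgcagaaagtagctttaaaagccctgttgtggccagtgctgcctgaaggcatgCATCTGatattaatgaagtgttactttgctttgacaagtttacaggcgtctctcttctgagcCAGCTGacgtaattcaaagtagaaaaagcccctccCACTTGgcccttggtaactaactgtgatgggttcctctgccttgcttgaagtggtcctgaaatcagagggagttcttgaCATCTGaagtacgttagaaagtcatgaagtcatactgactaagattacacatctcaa
None of the 4 windows holds the TATA box, the GATA core or the CCAAT box, which occur in 13.6%, 25.4% and 37.4% of the 32851 windows of the same length. The GC box, in 35.7% of all windows, has 2 matches at Ryr2, 3 at Camk2d, 1 at the first start of Cacnb2 and none at its second. The E-box, in 72.3% of all windows, has 2, 0, 1 and 4 matches in the same order. These are matches of letters only. No site of the 3 genes lies in these windows. The sequences around the SAM68 sites were not analysed here.

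Ryr2 was listed with 0 sites on day 0, 0 on day 3 and 87 on day 10. It ranked 98th of the 6345 genes with a site on day 10. With 11.7 sites per 10000 sites of the day 10 list, it held more of that list than the other 2 genes together. The exact interval of 87 sites is 69.7 to 107.

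Camk2d was the only one of the 3 genes with sites on day 3, with 0, 3 and 37 sites on the 3 days. These are 4.98 sites per 10000 on day 10 and 1.06 per 10000 on day 3. Its share of the list was 4.69 times as large on day 10 as on day 3 (exact interval 1.49 to 23.8). The 3 sites of day 3 against none on day 0 were too few for a call, since the lower end of that interval was 0.435. Of all genes with a site in the day 3 or day 0 list, 3.84% held a larger share on day 3.

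Cacnb2 held 0, 0 and 30 sites, or 4.04 per 10000 on day 10, with an exact interval of 20.2 to 42.8 sites. That interval overlaps the one of Camk2d, 26.1 to 51.0 sites, so the order of these 2 genes is within counting error. Ryr2 stands above both.

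**Figure D1:**
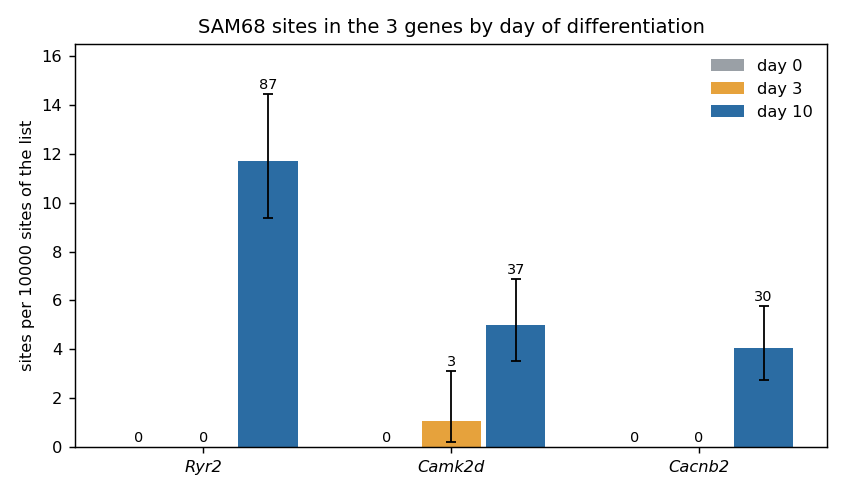
Sites per 10000 sites of the list of each day (vertical axis) in Ryr2, Camk2d and Cacnb2, with the number of sites above each bar and exact Poisson 95% intervals (counting error) as error bars. The 3 genes have no bar on day 0, only Camk2d has one on day 3 (3 sites), and day 10 has 87, 37 and 30 sites.

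All 3 genes held a larger share on day 10 than on day 0, and all 3 than on day 3. Among all genes with a site in either list, 7.33% held a larger share on day 10 than on day 0 and 5.62% on day 10 than on day 3. Where a gene had 20 or more sites in the lists compared, as these 3 have, the shares were 30.1% and 24.5%. Where the earlier list held none, only the lower end of the interval exists. Against day 0 it was 9.24 for Ryr2, 3.82 for Camk2d and 3.06 for Cacnb2, and against day 3 it was 8.79 for Ryr2 and 2.91 for Cacnb2. The genes were put together with their site numbers known, so these counts describe them and are not independent evidence of a direction. Of the 944 genes with at least 20 sites on day 10, 16.2% had none on day 0 and 8.47% had none on day 0 and day 3.

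The numbers that the authors gave to the sites bear on the zeros. In each list the numbers run in the order of chromosome, strand and position without a break in order, and some numbers are skipped, so that 42.1% of the numbers up to the highest one are in the day 0 list, 40.5% in the day 3 list and 54.2% in the day 10 list. What the skipped numbers were is not given in the sources used here. Around Ryr2, the nearest listed sites on its strand on day 0 are 2495.3 kb apart and leave 2 unused numbers between them, and on day 3 they leave 4. Around Cacnb2, 7 numbers were unused on day 0 and 5 on day 3, over 924.6 kb and 935 kb. Around Camk2d, 5 were unused on day 0 over 5052.7 kb. If each number stood for a position, no more than these few could have been inside the genes on the days listed at 0. On day 10, by contrast, 209 numbers run from the first to the last Ryr2 site, of which 87 are in the list and 122 are not. The same count was 69 numbers with 37 listed for Camk2d and 62 with 30 listed for Cacnb2. The listed share of numbers was thus 41.6% in Ryr2, 53.6% in Camk2d and 48.4% in Cacnb2, against a median of 63.3% over the 912 named protein-coding genes with at least 20 sites on day 10. It was lower than in Ryr2 in 10 of those 912 genes.

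Ryr2 spans 553.8 kb of the minus strand of chromosome 13, from 11553099 to 12106945. Its 87 sites ran through the whole span. The site nearest the 5′ end, at 12105002, lay 1943 nt from it. The sites nearest the 3′ end, at 11553845 and 11553269, lay 746 nt and 170 nt from it. With the span cut into 10 equal bins, each bin held at least 1 site, and from 5′ to 3′ they held 19, 14, 2, 11, 16, 6, 5, 1, 9 and 4. The first 5 bins together held 62 of 87 sites (71.3%, exact interval 60.6 to 80.5%). The median over the 912 genes was 54.1%, with the middle 80% of genes between 27.3% and 79.5%, so the lean of Ryr2 to its 5′ side is within the range of other genes.

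Neighbouring sites lay farther apart in all 3 genes than in most of the 912 genes, many of which are shorter. The median distance was 2667 nt in Ryr2, 2338 nt in Camk2d and 3969 nt in Cacnb2, and it was smaller in 834, 811 and 881 of the 912 genes, with a median over genes of 777 nt. The densest window of 10 kb in Ryr2 held 8 sites, from 11873095 to 11881403, which is 9.20% of its sites. In 15 of the 912 genes the densest window held a smaller share. The longest stretch of Ryr2 between sites was 49.75 kb, between 11725091 and 11675341.

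Camk2d spans 250.8 kb of the plus strand of chromosome 3, from 126595487 to 126846326. Its day 10 sites formed a group near the 5′ end and a smaller one beyond a long bare stretch. The first site, at 126605291, lay 9.80 kb from the 5′ end, and the first 2 bins of its span held 18 of the 37 sites, 7 and 11. No site lay between 126721610 and 126774765, a stretch of 53.16 kb, with 24 sites on its 5′ side and 13 on its 3′ side. That stretch made up 21.2% of the span, and the longest stretch was a smaller part of the span in 670 of the 912 genes. A bare stretch of this size is thus within the range of other genes. Its densest window of 10 kb held 9 sites between 126617597 and 126625126, which is 24.3% of its sites (exact interval 11.8 to 41.2%). That share is below the median of 31.2% over the 912 genes, and it was smaller in 270 of them. The first 5 bins held 62.2% of its sites, against a median of 54.1% over the 912 genes, which is also within their range. The median position of its sites was at 21.6% of the span, and 58 of the 912 genes had a median nearer the 5′ end.

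The 3 sites of Camk2d on day 3 lay in stretches that also held day 10 sites. The first, at 126625051 and in the densest window of day 10, was 2 nt from a day 10 site and shared bases with it. The second, at 126639962, was 28 nt from a day 10 site. The third, at 126843626, lay 2700 nt from the 3′ end of the gene and 1054 nt from the last day 10 site, at 126844680. By shared bases, 1 of 3 day 3 sites recurred on day 10 (exact interval 0.840 to 90.6%), which is 1 of 37 day 10 sites. Over genes with sites on both days, 28.1% of day 3 sites and 12.2% of day 10 sites overlapped. With 3 sites the share in Camk2d cannot be set apart from the share over all such genes.

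Cacnb2 spans 385 kb of the plus strand of chromosome 2, from 14603861 to 14988811. The start windows used here give 2 starts for it, at 14604306 and 14824092. Its span begins 445 nt before the first of them, so it may have other annotated starts. All 30 day 10 sites lay between the 2 starts used here, from 14637628 to 14814615. None lay in the 164.7 kb downstream of the second start, which make up 42.8% of the span. The last site was 174.2 kb from the 3′ end. Between the last site and the next listed site on the strand, outside the gene, 2 numbers were unused, against 32 unused numbers among the 30 sites. From 5′ to 3′ the 10 bins of its span held 1, 8, 8, 4, 8 and 1 sites, and the last 4 bins held none.

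The pattern of Cacnb2 was set beside other genes after it had been seen. Of 63 genes with at least 20 day 10 sites and an annotated start that leaves 30% to 60% of the span downstream, 2 had no site downstream of it, Cacnb2 and Thsd4, and the median gene of the 63 had 50.0% of its sites there. Of all 912 genes with at least 20 sites, 9 including Cacnb2 had none in the 3′ part of the span that corresponds to the part downstream of the second Cacnb2 start. Which transcripts of Cacnb2 were made was not measured here. In RefSeq, 2 other genes within the Cacnb2 span hold some of its sites by position, the long non-coding RNA gene Gm13269 with 6 and the pseudogene Gm13311 with 2. The strand of these 2 genes is not given here, so the sites need not lie in their transcripts. Per the file headers sites in overlapping genes had been removed, and by which annotation is not given in the sources used here.

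**Figure D2:**
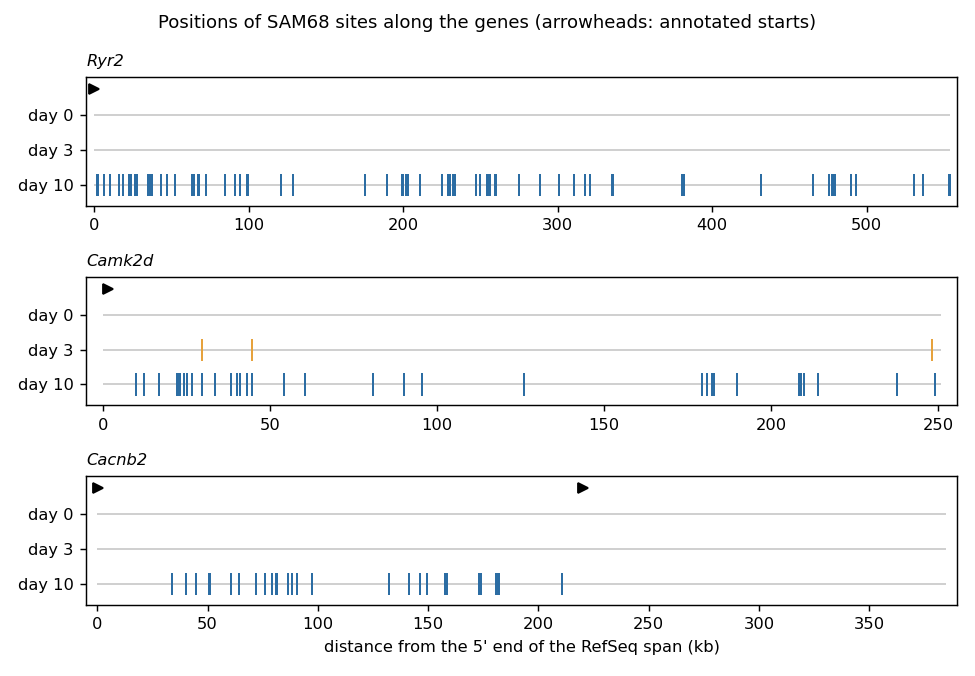
Each vertical line is 1 site, placed by its distance in kb from the 5′ end of the RefSeq span (horizontal axis), with a row for each day. Arrowheads mark the annotated starts used here. Sites of Ryr2 run through the span, those of Camk2d leave a bare stretch of 53.16 kb, and the 30 sites of Cacnb2 all precede its second start.

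**Figure D3:**
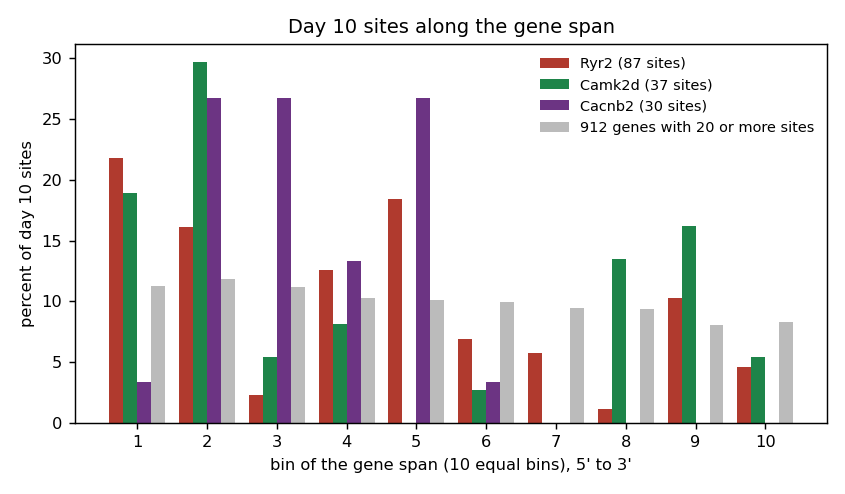
Percent of day 10 sites (vertical axis) in each of 10 equal bins of the gene span from 5′ to 3′ (horizontal axis), in Ryr2, Camk2d and Cacnb2 and pooled over the 912 genes with at least 20 sites on day 10. The pooled shares are 11.3% in the first bin and 8.3% in the last, whereas Cacnb2 has no site in the last 4 bins.

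Per length, Ryr2 and Camk2d were near the middle of the list, and Cacnb2 was below it. They ranked 2463rd, 2562nd and 3670th of the 5774 named genes with a day 10 site. On day 10 Ryr2 held 15.7 sites per 100 kb of span (interval 12.6 to 19.4), Camk2d 14.8 (10.4 to 20.3) and Cacnb2 7.79 (5.26 to 11.1), and the median over 5774 named protein-coding genes with a day 10 site was 12.2. The intervals of Ryr2 and Camk2d overlap, and that of Cacnb2 lies below the one of Ryr2. Counted only from the first to the last site, the densities were 15.8, 15.5 and 16.9 per 100 kb in the same order, and the 3 intervals overlap.

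Within their own length range the 3 genes held more sites than the median gene. Ryr2, with 87 sites, ranked 38th among the 279 genes with a span from 0.5 to 2 times its own, whose median was 14 sites. By the same range, Camk2d ranked 190th among 843 genes with a median of 12 sites, and Cacnb2 ranked 147th among 474 genes with a median of 14.5. The 3 genes were put together with their site numbers known, whereas the sets take in genes with as few as 1 day 10 site. The ranks therefore describe the 3 genes and are not independent evidence. Per 100 kb the medians of these sets were 3.25, 5.83 and 4.78 sites, all below the 12.2 of named genes at large. Slc8a1, the sodium-calcium exchanger, held 439 sites in a span of 365.3 kb, or 120 per 100 kb on day 10.

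**Figure D4:**
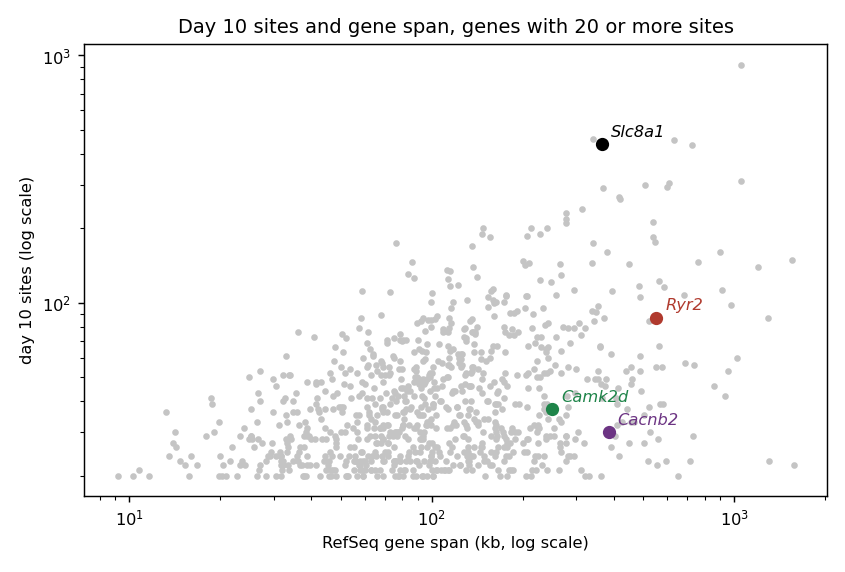
Day 10 sites (vertical axis) against the RefSeq gene span in kb (horizontal axis), both on log scales, for 912 named genes with at least 20 day 10 sites, each a point. Ryr2, Camk2d and Cacnb2, with 87, 37 and 30 sites, lie at the long end and inside the cloud, and Slc8a1, with 439, lies at its upper edge.

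Of their closest relatives, Camk2g held 12 sites on day 10 and each of the others 2 or fewer. Ryr3, the ryanodine receptor first found in brain, spans 586.1 kb, a little more than Ryr2, and was listed with 1, 3 and 2 sites in order of day, so that on day 10 Ryr2 held 15.7 sites per 100 kb and Ryr3 0.341. Ryr1, the receptor of skeletal muscle, held none on any day. Camk2g, a widely made isoform of the kinase, held 1, 4 and 12 sites. In its span of 59.28 kb that is 20.2 per 100 kb on day 10, more than the 14.8 of Camk2d, and its shares gave no call. Camk2a, an isoform of neurons, held 1 site on day 10, and Camk2b, another of brain and muscle, held none. The other beta subunit genes Cacnb1, Cacnb3 and Cacnb4 held none on any day, Cacnb4 with a span of 248.3 kb.

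Of 70 calcium handling genes chosen with earlier results of these data known, 38 held a site on some day. Their sites numbered 66, 153 and 1058 on the 3 days. Of the 36 with a site on day 10 or day 0, 9 had a larger share in the later list, 1 had a smaller one and 26 gave no call, and over all genes 7.33% had a larger and 10.5% a smaller share. The median log2 ratio of shares, with 1 added to each count, was 0.63 for the list. It was 0.37 without Ryr2, Camk2d, Cacnb2 and Slc8a1, and -0.32 over all genes. Bound genes had a median of 4 sites on day 10 and 2 on day 0. The added 1 therefore weighs heavily on the value over all genes, which does not show a typical fall. Without Ryr2, Camk2d, Cacnb2 and Slc8a1 the list held 66, 150 and 465 sites, and 5 of 32 genes held a larger share on day 10 than on day 0. Against day 3, 10 of 38 genes had a larger share in the later list and 3 had a smaller one, where 5.62% and 8.58% of all genes did. Without the same 4 genes, 6 of 34 had a larger share than on day 3 and 3 had a smaller one. A call needs enough sites. Among all genes with 20 or more sites in the lists compared, 30.1% had a larger share on day 10 than on day 0 and 24.5% than on day 3.

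Of the pore-forming subunit genes in the list, Cacna1g and Cacna1h, with spans of 66.01 and 62.05 kb, held no site. Cacna1c, the main pore-forming subunit of heart, held 0, 0 and 18 sites in 610.1 kb, and Cacna1d 0, 0 and 15 in 451.2 kb, both a larger share on day 10 than on either earlier day. Cacna1c and Cacna1d were picked out after their values were seen. Ank2, another gene of the list, spans 578.7 kb and held no site on any day. Among partners of RYR2, Fkbp1b, Casq2, Trdn and Hrc held no site on any day, although Trdn spans 393.2 kb, and Jph2 held 6 on day 10 alone. Other partners in the list did hold sites, among them Fkbp1a with 2, 3 and 12, Asph with 1, 3 and 4, and Sri with 0, 0 and 2. None of these gave a call between day 10 and an earlier day. Casq2 encodes the calcium-storing protein of the reticulum, and Trdn encodes triadin, a membrane protein that links it to the release channel. The calcium pump gene of the reticulum, Atp2a2, held 3, 6 and 14 sites and gave no call, and its regulator Pln held none.

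The other genes of the list with most sites differed among themselves. Ppp3ca, a catalytic subunit of calcineurin, held 3, 7 and 52 sites, a larger share on day 10 than on either earlier day, while its relative Ppp3cb held 10, 16 and 37 and was open in each comparison. Calm2, a calmodulin gene, held 5, 14 and 24 sites and was open between day 10 and either earlier day. Pde3a, a phosphodiesterase of cyclic nucleotides found in heart, held 0, 0 and 107 sites, a larger share on day 10 than on either earlier day. Pde4d, another phosphodiesterase, held 23, 44 and 23 and was the 1 gene of the list with a smaller share on day 10 than on day 0. Mcu, the mitochondrial calcium channel, held 1, 4 and 37 sites, a larger share on day 10. Atp2b1, a calcium pump of the surface membrane, held 7, 3 and 23 and was open. Itpr1, the calcium release channel of the inositol trisphosphate pathway, held 3, 16 and 7, a smaller share on day 10 than on day 3.

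**Figure D5:**
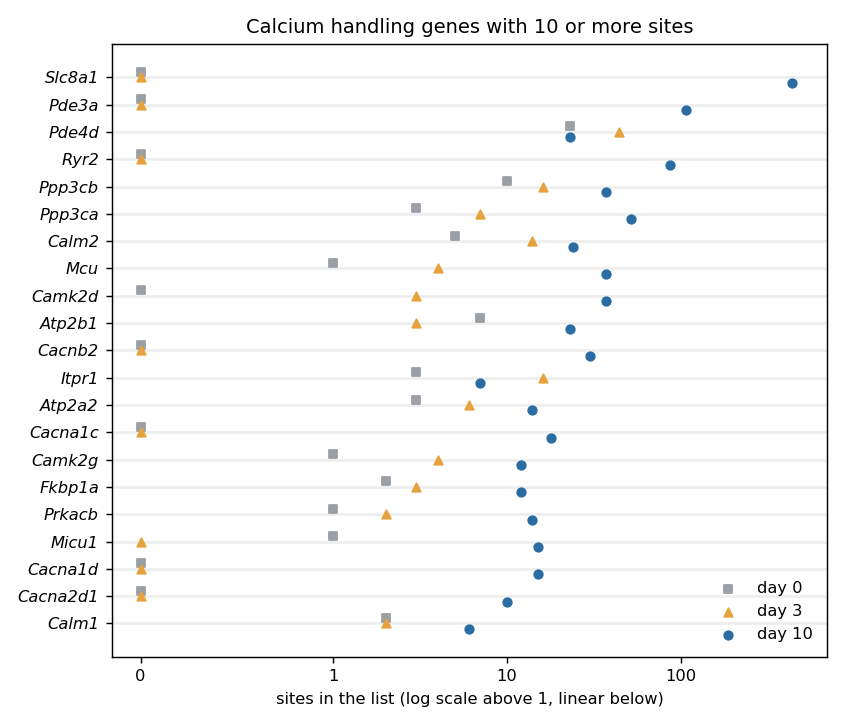
Sites in the day 0, day 3 and day 10 lists (horizontal axis, log scale above 1) for the calcium handling genes with 10 or more sites in all, ordered by total. Ryr2, Cacnb2, Slc8a1, Pde3a, Cacna1c and others have points at 0 on day 0 and day 3, while Pde4d has its highest point on day 3.

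Of 11 cardiomyocyte markers, 6 held sites on day 10 and none held any on day 0 or day 3, with summed levels of 0, 0 and 48 sites, 35 of them in Ttn and 6 in Myh6. Of these 6 only Ttn had a larger share on day 10 than on either earlier day, and the other 5 gave no call. Of all genes with a site in the lists compared, 7.33% had a larger share on day 10 than on day 0 and 5.62% than on day 3. Nkx2-5, Myh7, Myl2, Myl7 and Tnni3, with spans from 2.146 to 23.94 kb, held none. Spans of markers with sites overlapped that range. Tnnt2 held 3 sites in 15.95 kb and Actc1 2 in 5.594 kb, and Actn2 held 1 in 71.31 kb. Of 9 neuronal markers, 2 held a site and the summed levels were 1, 4 and 2 sites. Map2, Rbfox3 and Syt1, whose spans are 267.4, 421.8 and 513.3 kb, held none on any day. Smooth muscle markers held 0, 0 and 29 sites in 2 of 5 genes, 20 in Myocd, a factor shared with heart, and 9 in Acta2. Endothelial markers held 6, 0 and 39 sites and went different ways. Of the day 10 sites, 29 were in Flt1, which had a larger share on day 10 than on day 0. All 6 of day 0 were in Pecam1, which held none later and had a smaller share on day 10, and Kdr held none on any day. Visceral endoderm markers held 0, 3 and 87, with 80 of the day 10 sites in Dab2. Pluripotency markers held 107, 8 and 1. The part of cell composition in the day 10 sites of Ryr2, Camk2d and Cacnb2 was not tested.

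The genes whose site numbers were most like those of each member were found by distance over the 3 days on the log2 scale of sites per 10000, with 1 added to each count, among 1624 other named genes with 20 or more sites in all. Nearest to Ryr2 were Prickle1 with 0, 0 and 85 sites, Usp29 with 81 on day 10, Epb41l3 with 79, Ptn with 77 and App with 73, all with none earlier. Nearest to Camk2d were Rras2 with 0, 3 and 36 sites and Trim44 with 0, 3 and 39, then Lamb1, Podxl and Sema6a. Nearest to Cacnb2 were Cnksr2, Man1a and Tgfbr3, each with 0, 0 and 30 sites, then Gab2 and Pcgf5 with 31 on day 10. The likeness rests on 3 values per gene, and all genes of a day share 1 list. These neighbours spanned 44.45 to 236.7 kb, each shorter than the member it was nearest to.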

How the data were processed

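SAM68 iCLIP2 was run on 15 libraries, 5 per day. Among the tools in the submitters' processing notes are STAR 2.7.11a and UMI-tools 1.1.6, and the mouse build there is GRCm38.p5. The authors deposited a single list of called sites for a day. Per the file headers, each site had been given to a gene, with overlapping genes removed. How sites were called and libraries combined is not stated in the labels or headers. The deposited score is 0 at every site and was not used, and the other deposited columns used are positions, in GRCm38, counted here from 1 at the centre of a site.

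Gene symbols came from RefSeq spans of GRCm38.p6: a protein-coding ID took the symbol of the 1 protein-coding gene whose span took in 80% or more of the sites, which named 7060 of 7380 IDs. For a protein-coding gene, distances are to the ends of that span, and exons and introns were not used here. A share is a gene's sites over those of the list. Ratios of shares have exact conditional binomial intervals, counts exact Poisson intervals and proportions exact binomial (Clopper-Pearson) intervals. Calls were tried on simulated lists in which the counts were independent. That cannot show how calls behave where neighbouring sites depend on each other or libraries differ. Python 3.11.15, NumPy 2.4.6, pandas 2.3.3, SciPy 1.17.1 and matplotlib 3.10.9 were used.

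The genes and lists were chosen with earlier results of these data known. Named are the 3 genes, all their paralogs, the 10 other calcium handling genes with most sites, and the 5 genes nearest to each member over the days, with cell type markers; genes named beyond this were chosen after their values were seen. Alternatives changed the scaling, the merging of near sites, the overlap rule and the length used.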

Additional observations from a re-analysis of the deposited data

How the results depend on the processing

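The lists hold no value per library, so no replicate could be left out. No paired analysis was possible because the values come from 1 list per day and from no test between samples. Of 61 values recomputed under another setting, 59 kept their side of the threshold, stayed within their 95% counting interval (for a median distance, the binomial interval of the median) or, for a number of genes, within 1.5 times. Without the densest 10 kb window the median distance between day 10 sites was 4443 nt in place of 2338 nt in Camk2d, with an interval of 1382 to 5212 nt, and 5677 nt in place of 3969 nt in Cacnb2. The other 2 were the overlap in Camk2d, where 0 of the 3 day 3 sites had an identical position on day 10, and the density of Cacnb2, which was 16.9 sites per 100 kb when counted from its first to its last site. Some outcomes among the 61 were fixed in advance. Merging sites leaves a count of 0 at 0, and leaving genes called larger out of the calcium handling list takes exactly those genes off its count. Scaling by the highest site number, chosen after seeing the data, left every call of the 3 genes as it was and raised the ratio of Camk2d between day 10 and day 3 to 6.27. Merging sites with 50 nt or less between them left 82, 35 and 29 regions in Ryr2, Camk2d and Cacnb2 on day 10. Depth is unknown, and a gene listed at 0 has no floor.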
